A study of Mus musculus with 22 samples.

Results

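The 7 genes described here encode scaffold proteins of the excitatory synapse: Dlg1, Dlg2, Dlg4, Dlgap1, Shank2, Shank3 and Homer1. They were given as a named set, and every accessible-chromatin peak whose summit lay in the GRCm38 gene body or within 20 kb of it was counted as theirs. All 7 had peaks in every library and were among the 17130 of 21887 protein-coding genes with a mean of at least 3 peaks per library. Of 563373 consensus windows over the genome, which reach 250 bp to either side of a summit, 1786 had their centre at one of the 7 genes. Only Dlg1, Dlg2 and Dlg4 encode membrane-associated guanylate kinases (MAGUKs) in the strict sense, and the other four encode their partners.

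Postsynaptic scaffolds are built in layers. MAGUKs lie under the membrane and bind glutamate receptors and channels through PDZ domains, Dlgap1 links the guanylate kinase domain of MAGUKs to Shank proteins, and Homer proteins join Shank to metabotropic glutamate receptors and calcium release channels. The layer holds receptors in place in hippocampal and cortical excitatory neurons. In ATAC-seq a transposase cuts DNA that is not packed against nucleosomes, so a peak marks open chromatin and says nothing direct about the amount of RNA or protein.

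The libraries came from 11 adult male C57BL/6J mice, wild type by label, in a model of Gulf War Illness. Every animal, those given saline included, drank corticosterone (CORT) for 7 days, was injected with diisopropyl fluorophosphate (DFP), an organophosphate that blocks acetylcholinesterase, on day 8, and had intermittent CORT over 5 weeks. On the last day mice received saline (2 mice, collected at 6 h) or lipopolysaccharide (LPS), the bacterial cell wall component that sets off inflammation (3 mice each at 6, 12 and 24 h), and hippocampus and frontal cortex of each mouse gave 1 library each. Each group therefore had 2 or 3 animals per tissue, no group lacked CORT and DFP, and saline was taken at 6 h only, so that at 12 and 24 h the effect of LPS and the time of collection cannot be told apart. The libraries held between 204599 and 307186 distinct peak intervals, and peak lists carry no read depth, so the depth is unknown. Since hippocampus lists tended to be longer, peaks of a gene are given per 100000 peaks of the library. The 6 hippocampus markers summed to 129.9 to 154.7 peaks per 100000 in hippocampus and 89.7 to 100.7 in frontal cortex, and the 6 cortex markers to 48.6 to 59.2 against 78.8 to 85.6, as labelled. Tissue was bulk, so a change in the share of a cell type and a change of chromatin within its cells cannot be told apart.

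The promoters are shown first because the peak data over annotated starts are described next. RefSeq's table for GRCm38.p6 gave 15 starts for 6 of the genes, all on the plus strand, each with 250 bases before and 50 bases from the start on. Shank2 is named only. Motifs were searched on both strands and their letters stand in capitals: the GC box GGGCGG (in 35.7% of 32851 promoters of this length), the core TGACG of the cyclic AMP response element (CRE, 20.8%), the AP-1 site TGANTCA (7.81%) and the glucocorticoid response element, here AGAACA, NNN and TGTTCT in a row (0.00913%). A GC box and a CRE core can share an end letter, and a match describes letters, not binding. The following are those with a peak in all 22 libraries at CpG-rich DNA, and the starts inside Dlgap1 and Dlg2 whose peaks differed in number between the tissues or lay deep in the gene.
Homer1 start 1, chr13:93303507-93303806, plus strand: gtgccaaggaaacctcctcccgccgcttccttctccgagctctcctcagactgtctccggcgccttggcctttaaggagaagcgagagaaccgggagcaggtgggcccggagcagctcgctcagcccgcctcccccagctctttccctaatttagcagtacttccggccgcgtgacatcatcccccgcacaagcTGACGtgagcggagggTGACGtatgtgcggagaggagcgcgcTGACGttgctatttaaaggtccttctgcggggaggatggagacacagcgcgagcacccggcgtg
Shank3 start 1, chr15:89499358-89499657, plus strand: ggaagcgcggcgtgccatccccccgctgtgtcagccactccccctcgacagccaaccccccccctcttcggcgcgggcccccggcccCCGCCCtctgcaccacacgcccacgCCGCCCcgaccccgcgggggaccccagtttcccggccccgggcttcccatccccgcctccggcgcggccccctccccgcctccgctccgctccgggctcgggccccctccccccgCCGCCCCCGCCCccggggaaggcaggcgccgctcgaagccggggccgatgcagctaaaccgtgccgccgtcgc
Dlg1 start 2, chr16:31663685-31663984, plus strand: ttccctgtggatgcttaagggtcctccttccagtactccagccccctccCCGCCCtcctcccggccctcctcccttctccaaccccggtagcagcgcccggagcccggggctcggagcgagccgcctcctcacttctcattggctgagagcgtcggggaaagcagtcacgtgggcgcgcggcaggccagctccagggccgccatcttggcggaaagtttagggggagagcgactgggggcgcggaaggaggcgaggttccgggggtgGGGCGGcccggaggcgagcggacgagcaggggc
Dlgap1 start 1, chr17:69968823-69969122, plus strand: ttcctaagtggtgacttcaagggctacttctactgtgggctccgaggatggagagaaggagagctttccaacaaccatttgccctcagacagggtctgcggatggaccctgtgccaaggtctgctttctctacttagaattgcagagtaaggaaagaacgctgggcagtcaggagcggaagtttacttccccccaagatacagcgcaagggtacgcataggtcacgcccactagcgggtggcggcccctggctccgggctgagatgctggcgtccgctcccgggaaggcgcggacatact
Dlgap1 start 2, chr17:70561497-70561796, plus strand: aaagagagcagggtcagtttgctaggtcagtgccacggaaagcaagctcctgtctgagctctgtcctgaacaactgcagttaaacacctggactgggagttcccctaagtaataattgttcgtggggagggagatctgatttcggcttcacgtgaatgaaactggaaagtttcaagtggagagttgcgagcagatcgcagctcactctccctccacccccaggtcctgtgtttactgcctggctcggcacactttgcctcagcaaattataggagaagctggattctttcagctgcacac
Dlg2 start 2, chr7:92062144-92062443, plus strand: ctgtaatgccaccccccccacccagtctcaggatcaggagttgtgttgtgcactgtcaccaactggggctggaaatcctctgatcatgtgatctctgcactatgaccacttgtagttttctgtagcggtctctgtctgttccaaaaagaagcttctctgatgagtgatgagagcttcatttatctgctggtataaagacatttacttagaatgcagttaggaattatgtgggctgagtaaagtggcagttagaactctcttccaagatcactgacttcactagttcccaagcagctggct
Dlg2 start 3, chr7:92234720-92235019, plus strand: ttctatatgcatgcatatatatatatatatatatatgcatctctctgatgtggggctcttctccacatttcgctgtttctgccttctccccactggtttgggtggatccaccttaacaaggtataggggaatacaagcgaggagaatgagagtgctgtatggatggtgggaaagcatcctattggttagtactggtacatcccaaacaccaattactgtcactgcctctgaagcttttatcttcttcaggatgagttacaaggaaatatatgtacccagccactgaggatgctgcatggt

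The Homer1 promoter holds 3 CRE cores, all in the stretch just before the start, and 26 CpG dinucleotides. Homer1 encodes the adaptor whose short form is a classic activity-induced transcript. The Shank3 promoter is 81.0% G and C, with 40 CpG and 4 GC boxes, and that of Dlg1 start 2 is 71.0% G and C, with 27 CpG and 2 GC boxes. The median over all promoters was 7 CpG (quartiles 3 and 20). Dlgap1 start 1 had 15 CpG and start 2 had 7, while the 3 Dlg2 starts had 3, 1 and 2. None of the 15 member promoters holds an AP-1 site or a full glucocorticoid response element in these letters.

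A peak covered the start base in all 22 libraries at 6 of the 15 starts: Dlg1 start 2, Dlg2 starts 1 and 3, Dlgap1 start 1, Homer1 start 1 and Shank3 start 1. Over all 32851 annotated starts this held for 40.3%, and 44.3% had a peak in no library. At 4 member starts no library had a peak over the base (Dlg1 start 1, Dlg4 starts 1 and 2, Homer1 start 2). At Dlg4, which encodes the most abundant MAGUK of the postsynaptic density, the nearest peak lay 66 to 113 bp from start 2 in every library, and that start's promoter stretch was touched by a peak in 11 of 11 libraries of each tissue. The peak over the Shank3 start was broad, with a median width of 2304 bp in hippocampus and 2320 bp in cortex, against 1431 and 1507 bp at Homer1, 958 and 969 bp at Dlg1 start 2 and 731 and 677 bp at Dlg2 start 3. By the authors' fold over background, the Dlg1 peak ranked highest of these within its own library, in the top 2.90% of peaks (median of hippocampus libraries) and the top 4.76% (cortex).

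The start inside Dlgap1, 592.7 kb from the gene's first base and read from the sequence above, had a peak in every cortex library and in few hippocampus ones. A peak covered it in 11 of 11 cortex libraries and in 4 of 11 hippocampus libraries, namely 1 of the 2 saline, 0 of the 3 LPS 6 h, 2 of the 3 LPS 12 h and 1 of the 3 LPS 24 h libraries. These peaks were weak. By fold over background their median rank was in the top 70.9% of a library's peaks in cortex and the top 90.6% in hippocampus. Fisher's exact test gave an adjusted p of 0.0369 over 3695 starts tested, of which 10.5% passed. The call was lost with the animal as a block (exact sign test, adjusted p = 0.135), with peaks of −log10 q of at least 5 (0 against 6 libraries, adjusted p = 0.0770), and on omitting 1 animal in 7 of 11 cases (adjusted p 0.0326 to 0.0867 over the 11). The first Dlgap1 start, by contrast, had a peak in 11 of 11 libraries of each tissue.

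Dlg2 encodes a close relative of Dlg4 and has 3 annotated starts, at 614.6, 1586 and 1759 kb from the gene's left end. The first and the third were covered in all 22 libraries. Start 2 was covered in 8 hippocampus and 11 cortex libraries, which did not pass (Fisher's exact test, adjusted p = 0.548). With peaks of −log10 q of at least 5, the same start was covered in 0 hippocampus and 8 cortex libraries (Fisher's exact test, adjusted p = 0.0125), so the call at this start depends on which peaks are kept. The other starts with peaks in some libraries did not pass: Dlg1 start 3 (10 hippocampus against 7 cortex libraries, adjusted p = 0.738), Dlg1 start 4 (5 against 3, adjusted p = 0.946) and Dlg4 start 3 (3 against 0, adjusted p = 0.548), all by Fisher's exact test.

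**Figure D1:**
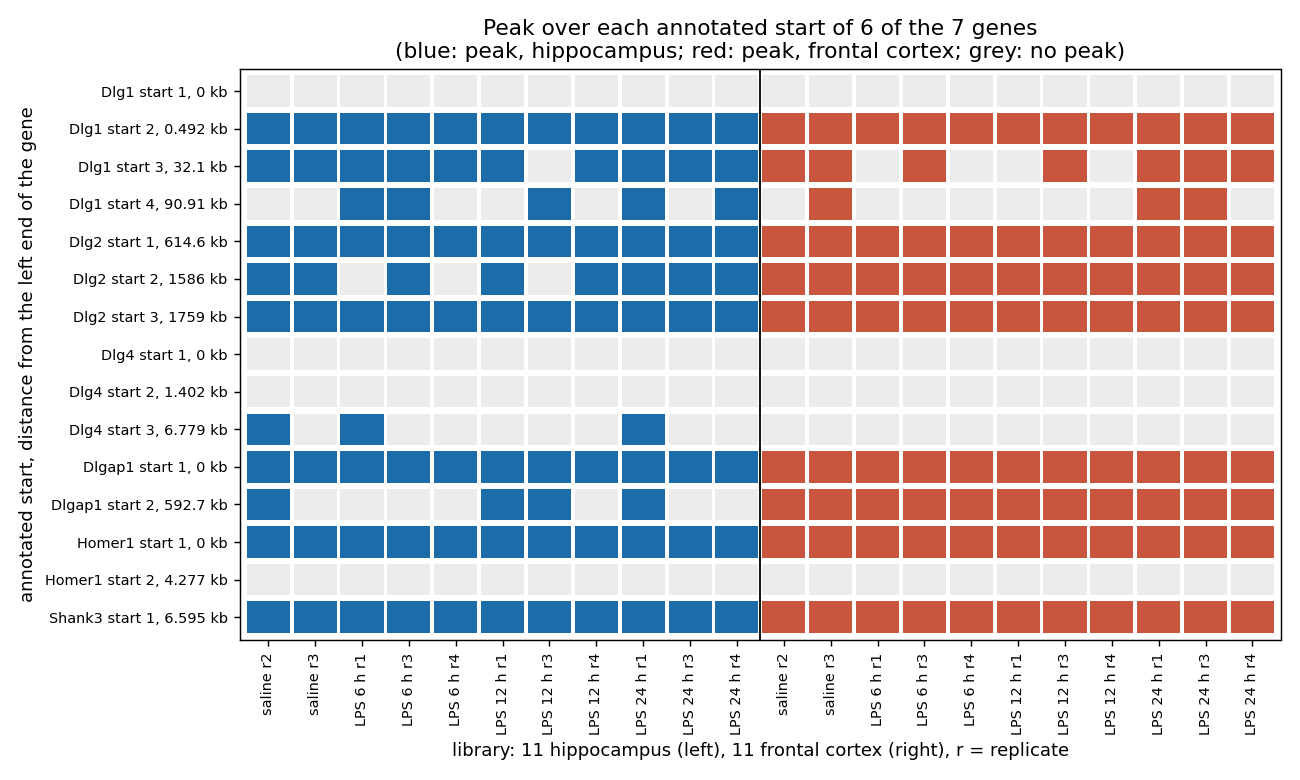
Peaks over the 15 annotated starts (rows, with the distance from the gene's left end in kb) in the 22 libraries (columns, hippocampus left, frontal cortex right); blue and red cells have a peak over the start base and grey cells have none. The row of Dlgap1 start 2 is filled in 11 cortex and 4 hippocampus libraries, and 6 rows are filled throughout.

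Over whole genes, 5 of the 7 had more peaks in frontal cortex than in hippocampus: Dlg1, Shank3, Homer1, Shank2 and Dlg2. In limma's test over all 17130 genes 45.1% were called between the tissues and 28.7% were called higher in cortex, so many genes did the same. Dlgap1 and Dlg4 were not called. No member was called higher in hippocampus, where 16.4% of genes were. All log2 differences below are hippocampus minus cortex on the log2(peaks per 100000 + 0.5) scale, and their median over all genes was -0.06.

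Dlg1, a MAGUK that takes part in receptor trafficking, stood furthest apart. It had 12.0, 14.3 and 16.6 peaks per 100000 (lowest, median and highest of 11 libraries) in hippocampus and 15.8, 19.7 and 22.6 in cortex. The ranges overlap only at their ends, and cortex was higher in 11 of 11 animals, in raw numbers as well. The difference was -0.43 (SE 0.051, limma, adjusted p = 1.54e-08). Its raw numbers of peaks were 37.5 ± 3.36 (SD, n = 11) in hippocampus and 47.2 ± 4.21 in cortex.

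Shank3 and Homer1 came next, one the scaffold at the base of the density, the other its adaptor. Shank3 had 5.73, 7.81 and 8.78 peaks per 100000 in hippocampus and 8.19, 9.29 and 10.9 in cortex. The ranges overlap only at their ends, with cortex higher in 11 of 11 animals. Its difference was -0.28 (SE 0.056, limma, adjusted p = 0.000116). Homer1 had 8.84, 10.9 and 12.7 in hippocampus and 11.3, 12.5 and 15.2 in cortex, higher there in 10 of 11 animals. Its ranges overlap, and its difference was -0.23 (SE 0.055, limma, adjusted p = 0.00112). In raw numbers of peaks both Shank3 and Homer1 were higher in cortex in 7 animals, higher in hippocampus in 3 and equal in 1.

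Differences at the long genes Shank2 and Dlg2 were small. Shank2, the close relative of Shank3, had 34.0, 38.1 and 43.4 peaks per 100000 in hippocampus and 37.7, 41.4 and 45.6 in cortex, a difference of -0.13 (SE 0.035, limma, adjusted p = 0.00241). Dlg2 had 115.6, 129.4 and 146.0 in hippocampus and 124.8, 144.4 and 153.3 in cortex, a difference of -0.13 (SE 0.030, limma, adjusted p = 0.00085). Both were higher in cortex in 10 of 11 animals on this scale, and in both the ranges overlap over most of their length. In raw numbers of peaks Shank2 was higher in cortex in 4 animals, higher in hippocampus in 5 and equal in 2, and Dlg2 was higher in cortex in 6 and in hippocampus in 5.

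The other 2 members did not separate. Dlgap1 had 64.9, 74.6 and 77.7 peaks per 100000 in hippocampus and 66.2, 70.1 and 77.2 in cortex (difference 0.04, SE 0.033, limma, adjusted p = 0.376). Dlg4 had 5.58, 6.79 and 8.76 in hippocampus and 5.99, 6.54 and 7.16 in cortex (difference 0.04, SE 0.064, limma, adjusted p = 0.662). A p above the threshold does not show that the tissues are alike at these genes, and Dlg4, with a mean of 17.0 peaks, had the widest SE.

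These calls depend on scaling for the list length. Without scaling the median of all genes moved by 0.106, from -0.06 to 0.05, and the share of called genes that were higher in hippocampus went from 36.4% to 68.1% (47.5% per 100 Mb covered). Without scaling Dlg1 was still called higher in cortex (-0.33), Dlgap1 was called higher in hippocampus (0.15, limma, adjusted p = 0.0152), and Shank3, Homer1, Shank2 and Dlg2 were not called. Scaling shifts all genes of a library almost alike, so values relative to the median gene are bound to stay nearly the same. They were -0.37 for Dlg1 under both, -0.22 for Shank3 under both, and -0.17 and -0.16 for Homer1, and lend the calls no support. Some cell-type markers also moved with tissue. The 4 inhibitory neuron markers summed to 31.5 to 38.5 peaks per 100000 in hippocampus and 19.3 to 34.5 in cortex, and the 4 oligodendrocyte markers to 24.7 to 29.8 against 28.1 to 36.5. Of these, 3 inhibitory neuron and 0 oligodendrocyte markers had the higher mean in hippocampus. The ranges of these sums overlap, as do those of astrocyte, microglia, endothelial, striatal neuron and choroid plexus markers. The part of any of these lists in the members' differences was not tested.

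**Figure D2:**
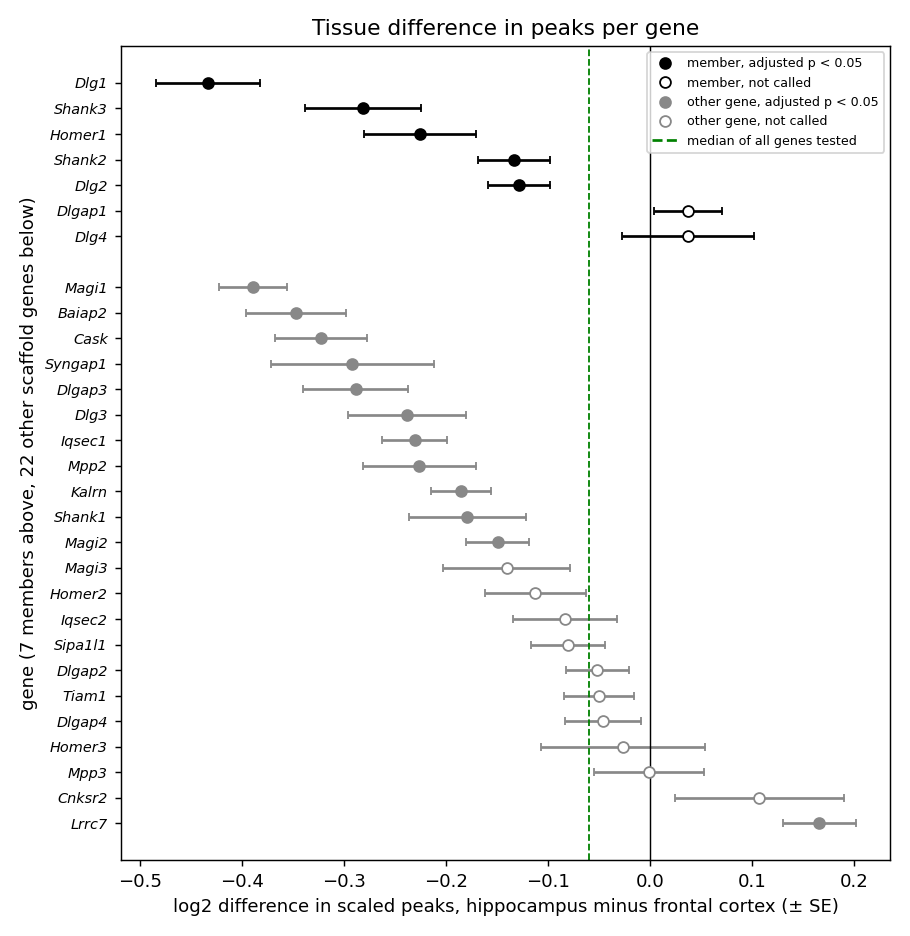
Log2 difference in peaks per 100000 between hippocampus and frontal cortex (x axis, bars 1 SE) for the 7 members (black) and 22 other scaffold genes (grey), filled where limma's adjusted p is under 0.05; the dashed line is the median of all genes. Dlg1 lies lowest of the members at -0.43, and Dlgap1 and Dlg4 lie at 0.04.

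Other genes of the postsynaptic density, 22 in a list of MAGUKs, Dlgap and Shank relatives, Homer relatives and their binding partners, were read beside the members. Of the 22, 11 were called higher in cortex, 1 higher in hippocampus and 10 were not called, where 28.7% and 16.4% of all genes were called in those directions. Their median difference was -0.14. Without scaling 5 were called higher in cortex and 2 higher in hippocampus (median -0.03), and among the 50000 strongest peaks 7 and 2 of the 19 tested. The largest difference was at Magi1, a MAGUK with inverted domain order (-0.39, SE 0.033, limma, adjusted p = 1.27e-11), followed by Baiap2, an actin-binding partner of Shank (-0.35, SE 0.049, limma, adjusted p = 4.87e-07). The gene called higher in hippocampus was Lrrc7, which encodes densin, a partner of Shank (0.17, SE 0.036, limma, adjusted p = 0.000268). Neither list was tested as a set.

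Totals hide the direction of single windows, and at every member but Dlg4 windows were called towards both tissues. Of the 1786 windows at the members, 272 had a peak in all 22 libraries and 423 in 1 library only. The 1029 windows with a peak in 2 to 20 libraries were compared by Fisher's exact test, adjusted over 327333 windows of the genome. At the members 115 passed towards hippocampus and 123 towards cortex, together 23.1%, against 30.5% of all windows tested (18.3% towards hippocampus and 12.2% towards cortex). The 22 other scaffold genes were much like the members, with 204 towards hippocampus and 213 towards cortex, 22.2% of 1878 tested. A peak in all 11 hippocampus and no cortex library was found in 20 member windows (1.94%, against 4.22% of all), and the reverse in 19 (1.85%, against 2.34%). Hippocampus took 48.3% of the members' calls and 60.0% of all calls. Unlike the totals per gene, window calls use the bare presence of a peak, with no scaling for the longer hippocampus lists. Each gap depends on which peaks are kept, but neither filter closed both. With −log10 q of at least 5 the called share was 34.2% at the members and 34.9% over all windows. The hippocampus share of calls stayed apart there (48.1% against 56.4%). Among the 50000 strongest peaks every library has a list of the same length. Hippocampus took 47.6% of the members' calls there and 49.4% of all calls, while the called share stayed apart (32.1% against 37.5%). With the animal as a block (exact sign test) 81 and 81 of the windows passed, all among the 238. Of the 238, 104 were called in the same direction with −log10 q of at least 5 and 6 among the 50000 strongest peaks. Over all windows 51678 and 6427 of 99751 were. Most windows named below by position therefore rest on the full peak lists.

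**Figure D3:**
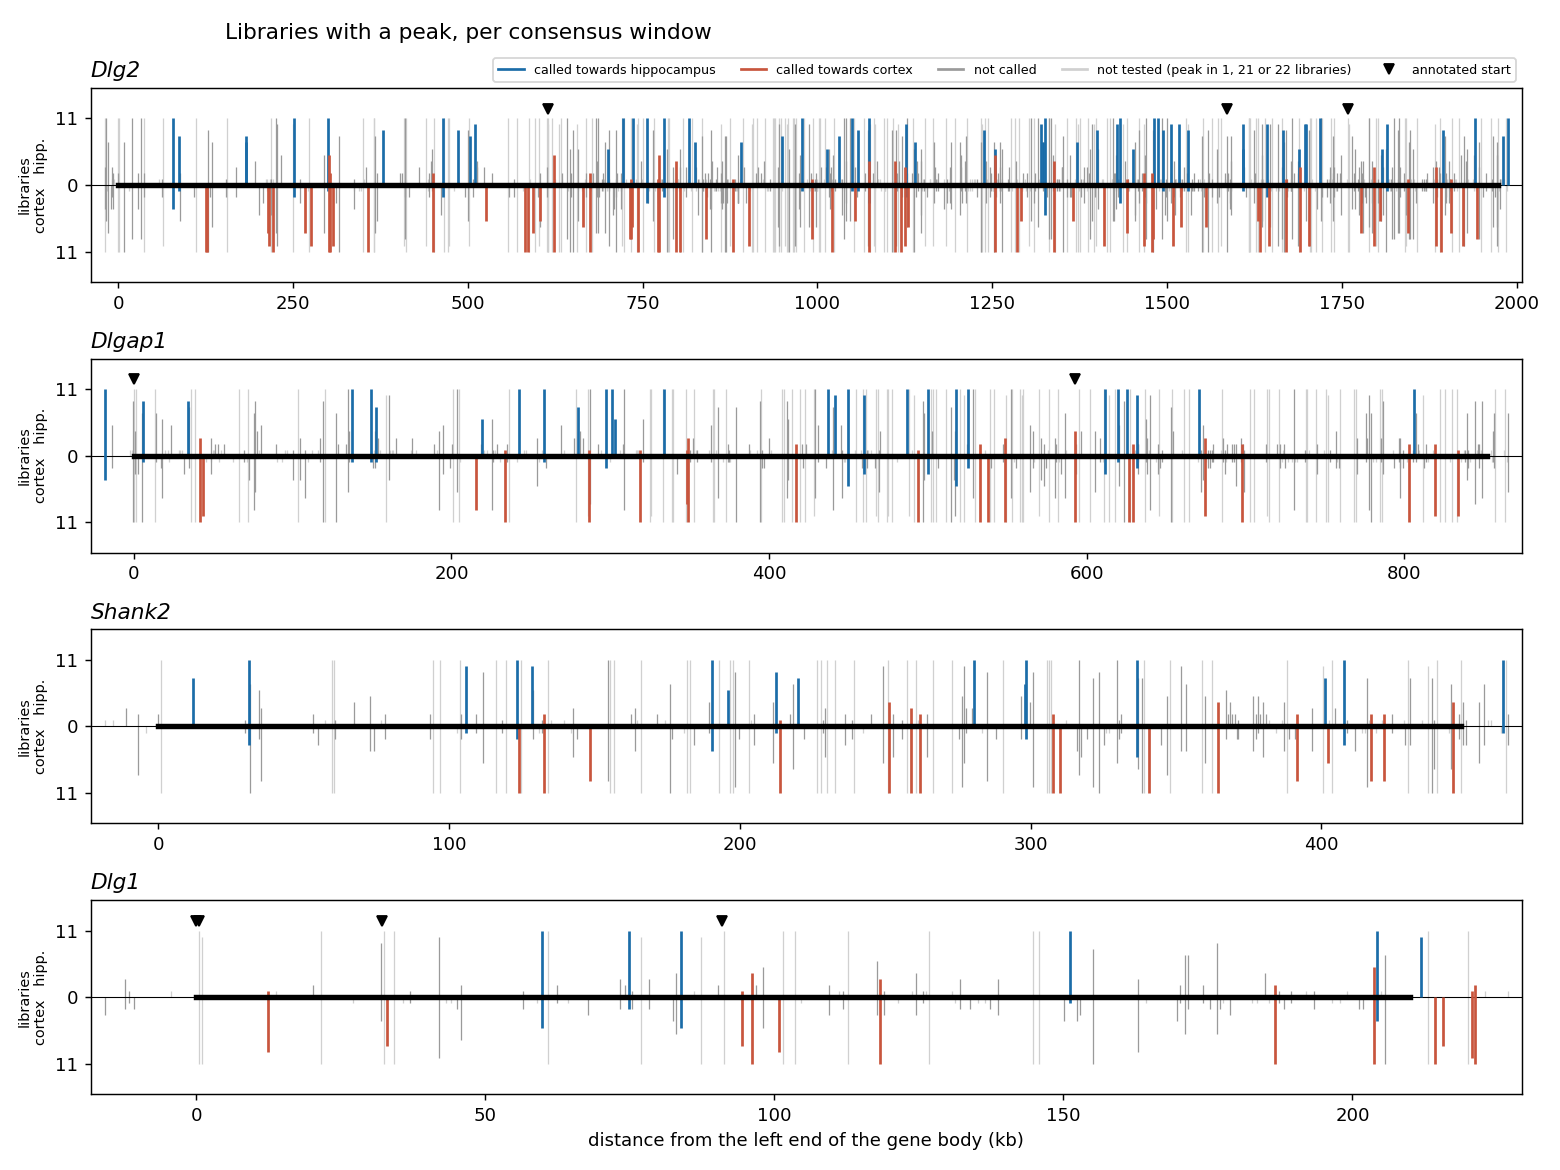
Number of libraries with a peak in each window along Dlg2, Dlgap1, Shank2 and Dlg1 (x axis, kb from the left end of the gene body; hippocampus upwards, frontal cortex downwards, at most 11 each). Windows called towards hippocampus (blue) and cortex (red) are mixed along each gene, and the triangles mark annotated starts.

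Dlg2 carried 125 of the 238 called windows on a body of 1973 kb (chr7:90476188-92449246), 58 towards hippocampus and 67 towards cortex (42 and 40 with the animal as a block). It also held 495 of the 1029 windows tested, and its called share was 25.3%, against 23.1% at all members and 30.5% of all windows. All but 2 of the 125 lay in the gene body. In the stretch before the first annotated start, 11 windows passed towards hippocampus and 17 towards cortex of 78 tested. Between starts 1 and 2 the counts were 33 and 35 of 285, between starts 2 and 3 they were 8 and 6 of 50, and after start 3 they were 4 and 9 of 72. Both directions thus occurred in every stretch. A peak in all 11 libraries of one tissue and none of the other was found in 8 Dlg2 windows for hippocampus and 13 for cortex. The hippocampus windows chr7:91197942-91198442, chr7:91212227-91212727 and chr7:91291921-91292421 and the cortex windows chr7:90601251-90601751, chr7:90603198-90603698 and chr7:90697192-90697692 are of this kind (Fisher's exact test, adjusted p = 4.32e-05 for each, the lowest that 11 against 0 gave). The longest run of called windows without one of the opposite direction was 8 cortex windows over 149.8 kb (chr7:91001157-91150961). It spans the first annotated start, which itself had a peak in every library.

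Dlgap1 (chr17:69969073-70821413), although its scaled total was not called, had 28 windows towards hippocampus and 21 towards cortex. Before the internal start 21 passed towards hippocampus and 14 towards cortex, of 145 tested. From the internal start on there were 6 and 7, of 79. With 11 against 0 libraries, 8 windows were hippocampus-only and 2 cortex-only. Examples are chr17:70211487-70211987, chr17:70270173-70270673 and chr17:70302615-70303115 for hippocampus and chr17:70506952-70507452 and chr17:70595254-70595754 for cortex. A run of 5 hippocampus windows over 50.0 kb (chr17:70405939-70455979) was followed by one of 4 cortex windows over 60.0 kb (chr17:70501940-70561970). The last window of the cortex run is the one on the internal start (4 against 11 libraries, Fisher's exact test, adjusted p = 0.0156, with the animal as a block 0.0601).

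Shank2 (chr7:143978077-144426043) had 16 windows towards each tissue. Hippocampus-only was chr7:144258300-144258800, and cortex-only were chr7:144101759-144102259, chr7:144287907-144288407 and chr7:144318621-144319121. The windows chr7:144106221-144106721 (10 hippocampus against 0 cortex libraries) and chr7:144101759-144102259 (0 against 11) lie within a few kb of each other and were called in opposite directions. One further hippocampus window, chr7:144440341-144440841 (11 against 1), lies past the gene's end within Cttn, the cortactin gene.

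Dlg1 (chr16:31663443-31873356), whose total differed most, had 12 windows towards cortex and 6 towards hippocampus, of 72 tested. Only chr16:31877411-31877911, just past the gene's end, had a peak in all cortex and no hippocampus libraries. Within the body chr16:31764062-31764562 had a peak in 0 hippocampus and 9 cortex libraries, and chr16:31849853-31850353 in 2 and 11 (Fisher's exact test, adjusted p = 0.00145 for both). In the other direction chr16:31814289-31814789 had a peak in 11 hippocampus and 1 cortex library (adjusted p = 0.000297). At 3 of its 18 called windows the centre lay in another gene of the 20 kb flank.

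The short genes gave few calls. Shank3 (chr15:89493013-89560261) had 4 windows towards cortex and 2 towards hippocampus. In its body chr15:89519890-89520390 had a peak in 10 cortex and no hippocampus libraries, while chr15:89555560-89556060 near the 3′ end had one in 10 hippocampus and 1 cortex library (Fisher's exact test, adjusted p = 0.000297 and 0.00215). With the animal as a block neither of its hippocampus windows passed (exact sign test, adjusted p = 0.0560 and 0.0601). Homer1 (chr13:93303757-93405129) had 2 windows towards hippocampus and 3 towards cortex, 10.6% of the 47 tested. The Homer1 window chr13:93321070-93321570, 17.6 kb into the gene, had a peak in 11 hippocampus and 0 cortex libraries, and chr13:93331774-93332274, 28.3 kb into it, in 1 and 11. Homer1's second hippocampus window, chr13:93402021-93402521 (9 against 2 libraries), was lost in 7 of the 11 fits without 1 animal and with the animal as a block (exact sign test, adjusted p = 0.0601). Under the block 1 hippocampus and 2 cortex windows of Homer1 passed.

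Dlg4 (chr11:70017203-70045535) had 3 called windows, all towards hippocampus, and no call towards cortex. The one in its body, chr11:70042967-70043467, lies 26.0 kb into a gene of 28.3 kb and had a peak in 11 hippocampus and 0 cortex libraries (Fisher's exact test, adjusted p = 4.32e-05). The other pair lie in neighbours within the flank: chr11:70049238-70049738 in Asgr1, a liver lectin receptor gene (11 against 0), and chr11:70003997-70004497 in Dvl2, a Wnt signalling gene (7 against 0, adjusted p = 0.0156). With the animal as a block the Dvl2 window was lost (exact sign test, adjusted p = 0.0601). Peaks were densest at Dlg4, with 24.8 per 100 kb, above the 17.0 to 20.9 of the other members and a median of 15.4 over all genes (quartiles 11.1 and 19.9). Of its 36 windows 22 lay in the flanks, 11 of them within other genes. With peaks of −log10 q of at least 5 the Dlg4 counts were 1 towards hippocampus and 2 towards cortex.

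In the number of peaks no member was called between LPS and saline. In some comparisons these small groups did not overlap, which with so few libraries is no result about the members. No call was made by limma at the 7 genes in any of the 6 comparisons with saline, in the F test over LPS times in either tissue, or in the interaction of tissue and LPS. Among all genes 0.0% were called at 6 and 12 h in both tissues, 0.00584% in hippocampus and 0.0292% in cortex at 24 h, and 0.0% for the F tests and the interaction. At an unadjusted p under 0.05 there was 1 member each in hippocampus at 6 h and 12 h, 0 at 24 h, 1 each in cortex at 6 h and 12 h and 2 at 24 h. Over all genes those counts were 919, 1192, 1324, 931, 995 and 1947 of 17130. The member counts rest on single saline libraries: in hippocampus at 6 h there were 4 without saline replicate 3 and 0 without replicate 2, at 12 h 2 and 0, and at 24 h 1 and 0. In cortex there were 2 and 0 at 6 h, 2 and 0 at 12 h and 1 and 2 at 24 h, in the same order. Log2 differences of the members ran from -0.20 to 0.29. All comparisons of a tissue share the same 2 saline libraries. The share of all genes whose groups did not overlap was not counted, so the separations below are descriptions only.

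Dlg1 in hippocampus had 12.0 and 12.8 peaks per 100000 in the saline libraries. LPS libraries had 16.6, 14.1 and 15.3 at 6 h, 15.7, 14.7 and 14.3 at 12 h and 14.0, 13.0 and 15.5 at 24 h. All 9 lay above both saline libraries on this scale. The raw numbers overlap, with 37 and 32 peaks in saline and 33 to 43 after LPS. The log2 differences were 0.29 (SE 0.098), 0.26 and 0.18 (limma, adjusted p = 0.799, 0.590 and 0.669), the first 2 with an unadjusted p under 0.05, which neither had without scaling. In cortex Dlg1 had 16.6 and 22.3 in saline, and every LPS value but 2 lay between them. Those 2 were 22.6 at 6 h and 15.8 at 24 h.

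Dlg2 in cortex had 124.8 and 139.5 peaks per 100000 in saline, 143.1, 152.0 and 149.0 at 6 h, 153.3, 144.4 and 141.8 at 12 h and 148.6, 144.8 and 139.5 at 24 h after LPS. The lowest LPS value, at 24 h, lay level with the higher saline library. The log2 differences were 0.17, 0.15 and 0.13 (SE 0.054, limma, adjusted p = 0.788, 0.816 and 0.385), each with an unadjusted p under 0.05. Without scaling only the one at 24 h (0.25) had such a p. In hippocampus Dlg2 had 115.6 and 135.2 in saline and 122.2 to 146.0 after LPS, and the groups overlapped at every time.

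Shank2 in cortex had 41.5 and 45.6 peaks per 100000 in saline and 38.7, 40.2 and 37.7 at LPS 24 h, below both. The raw numbers, 110 and 100 in saline and 103, 98 and 106 at LPS 24 h, overlap. Its log2 difference at 24 h was -0.16 (SE 0.072, limma, adjusted p = 0.407), while at 6 h it was 0.00 and at 12 h -0.05. Shank2 in hippocampus had 38.4 and 39.9 in saline and 34.8, 37.1 and 36.0 at LPS 24 h, also below both. Raw numbers there were 118 and 100 in saline and 97, 94 and 88 at LPS 24 h, and limma gave no unadjusted p under 0.05. Shank3, Dlgap1, Homer1 and Dlg4 had no unadjusted p under 0.05. Shank3 in hippocampus had 7.81 and 8.37 in saline and 7.53, 7.89 and 5.73 at 24 h. Homer1 in hippocampus had 9.44 and 11.6 in saline and 10.8, 12.2 and 12.7 at 6 h. In these Shank3 and Homer1 comparisons the groups overlapped.

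**Figure D4:**
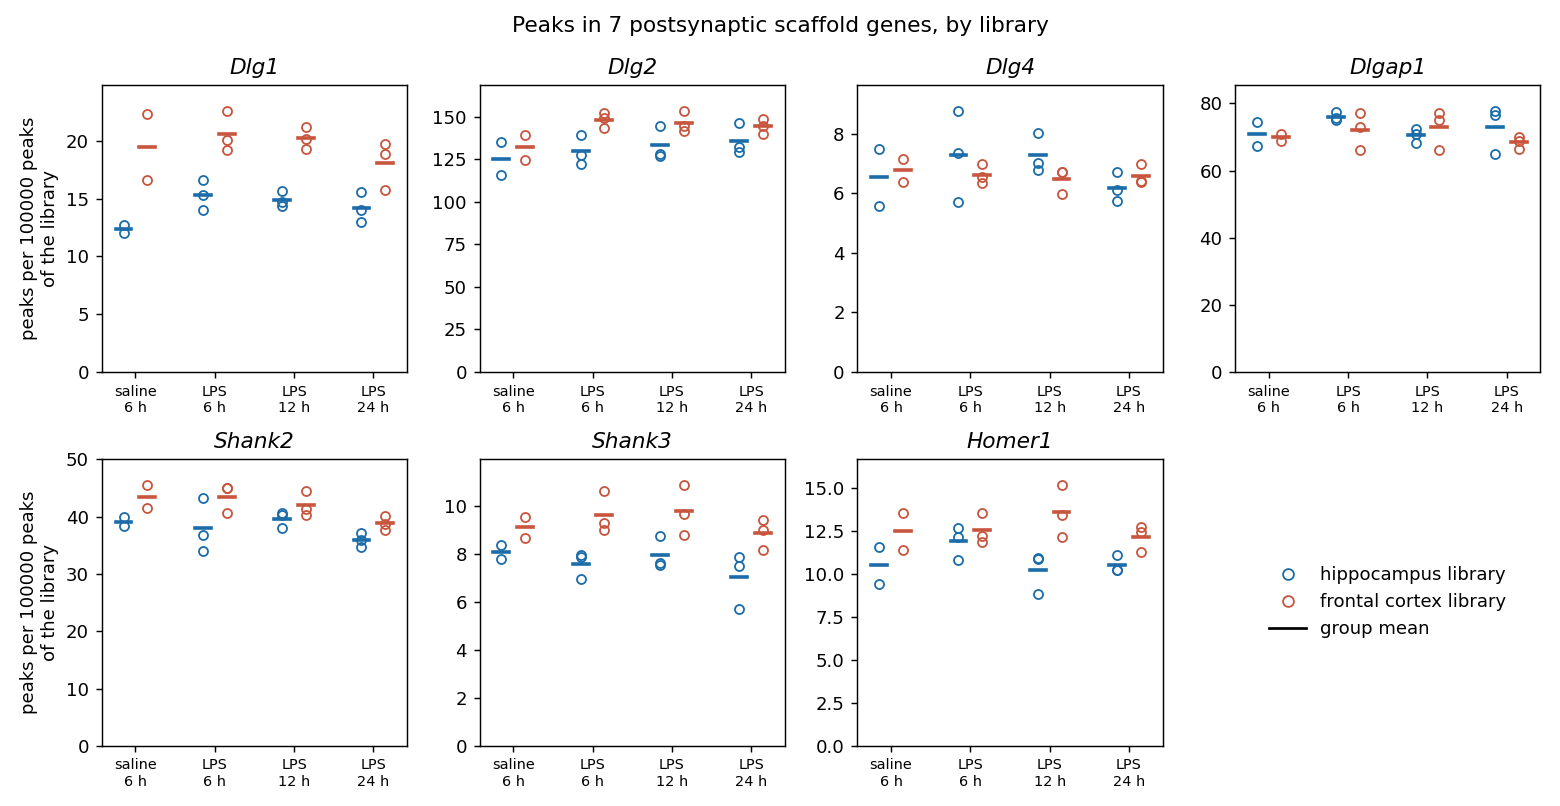
Peaks per 100000 peaks of the library at each gene (y axis from 0) for saline and LPS groups (x axis), 1 circle per library (hippocampus blue, frontal cortex red), bars at the group means. Cortex lies above hippocampus at Dlg1, Shank3, Homer1, Shank2 and Dlg2 in every group mean, while at Dlgap1 and Dlg4 the order changes between groups.

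Below the level of the gene, the authors' deposited tables of differential regions, made with csaw against saline within each tissue, list 28 distinct regions at the members, one of them in 2 tables. The number in these tables is read here as −10 times log10 of the false discovery rate (FDR). The authors' labels mark 26 of the 28 as intronic in the member gene itself, and none of those lies at an exon or a promoter of it. No region at a member is listed at 6 h in either tissue or in cortex at 12 h. Such regions were rare genome-wide: they touched 0.000565% (higher) and 0.00621% (lower) of windows in hippocampus at 6 h, 0.0491% and 0.0478% in cortex at 6 h, and 0.00213% and 0.0128% in cortex at 12 h. Dlg4 and Homer1 have none in any table.

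In cortex at 24 h the authors' deposited table lists 20 regions at the members as higher after LPS and 1 as lower. They touch 1.98% of the members' windows, where all higher regions touch 1.49% of all windows and the lower ones 0.155%. Dlg2, which has 854 of the members' 1786 windows, holds 14 of the 20. They are spread from 63.5 to 1908 kb along the gene, at an FDR of 3.14e-07 to 0.0412. At an FDR of up to 0.01 the table keeps 8 of these 14, and 14 of the 20. The lowest, chr7:92100851-92101210, lies between Dlg2 starts 2 and 3. The authors' label places it in an intron of Dlg2 and also of 4930567K12Rik, on the other strand. It had a peak in 0 of 2 saline, 1 of 3 LPS 6 h, 0 of 3 LPS 12 h and 2 of 3 LPS 24 h cortex libraries. Next were chr7:92374051-92374210 (FDR 0.000674; 0, 1, 1 and 3 libraries in that order) and chr7:91078301-91078610 (FDR 0.0035; 1, 3, 3 and 3 libraries), in the last stretch before start 1.

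The authors' deposited table for cortex at 24 h also lists 3 regions in Dlgap1 as higher. The region chr17:70397801-70398060 (FDR 8.9e-06) had a peak in 1 of 2 saline, 2 of 3 LPS 6 h, 1 of 3 LPS 12 h and 3 of 3 LPS 24 h cortex libraries. The region chr17:70277751-70278210 (FDR 4.19e-05) had 1, 3, 2 and 3, and chr17:70044551-70044960 (FDR 0.00937) had 2, 2, 2 and 3. One further Dlgap1 region, chr17:70319251-70319310 (FDR 0.0112), is listed as lower and had a peak in 1 saline library and none of the LPS cortex libraries. Shank2 has 2 higher regions, chr7:144144001-144144360 (FDR 0.00235), with a peak in all 11 cortex libraries, and chr7:144168451-144168710 (FDR 0.00272), with 0, 1, 0 and 3. The one at Shank3, chr15:89484801-89484910 (FDR 8.61e-05), lies 8.16 kb before the gene in an exon of C230037L18Rik.

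Of the 20 higher regions 17 had a peak in all 3 cortex LPS 24 h libraries. In the saline cortex libraries 8 had a peak in both, 7 in one and 5 in neither. In hippocampus 11 of the 20 had a peak in all 11 libraries, saline included. The list of 4 inhibitory neuron markers summed to 19.6 and 29.4 peaks per 100000 in the cortex saline libraries, between 26.7 and 34.5 at LPS 24 h and between 19.3 and 26.6 at 6 and 12 h. Its part in these regions was not tested.

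In hippocampus at 12 h the authors' deposited table lists 3 regions at the members as higher and 4 as lower, touching 0.290% and 0.387% of their windows, where 0.328% and 0.527% of all windows were touched. The Dlg1 region chr16:31839851-31840060 (FDR 0.00413, higher) had a peak in 0 of 2 saline libraries and in 9 of 9 hippocampus LPS libraries. In cortex the same stretch had a peak in 0 of 2 saline, 2 of 3 LPS 6 h, 1 of 3 LPS 12 h and 3 of 3 LPS 24 h libraries. The Dlg2 region chr7:91162151-91162360 is listed as higher both here (FDR 0.0187) and in cortex at 24 h (FDR 0.00359). It had a peak in all 11 hippocampus libraries, and in 1 of 2 saline and 7 of 9 LPS cortex libraries. The tissues come from the same 2 saline animals.

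Shank2 has 1 higher and 3 lower regions in that table. Higher was chr7:144013351-144013510 (FDR 0.0491), with a peak in 0 of 2 saline and 2 of 3 LPS 12 h hippocampus libraries. Lower were chr7:144141851-144141910 (FDR 0.0188), chr7:144230551-144230760 (FDR 0.0375) and chr7:144440351-144440710 (FDR 0.0233), the last within Cttn and inside the flank window called towards hippocampus. The Dlgap1 region chr17:70383451-70383760 (FDR 0.0406, lower) had a peak in all 22 libraries. At 24 h in hippocampus the only region, chr17:70803901-70804010 in Dlgap1 (FDR 0.0382, higher), had a peak in no library of either tissue. The share of all windows touched there was 0.0268% for higher and 0.0232% for lower regions.

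**Figure D5:**
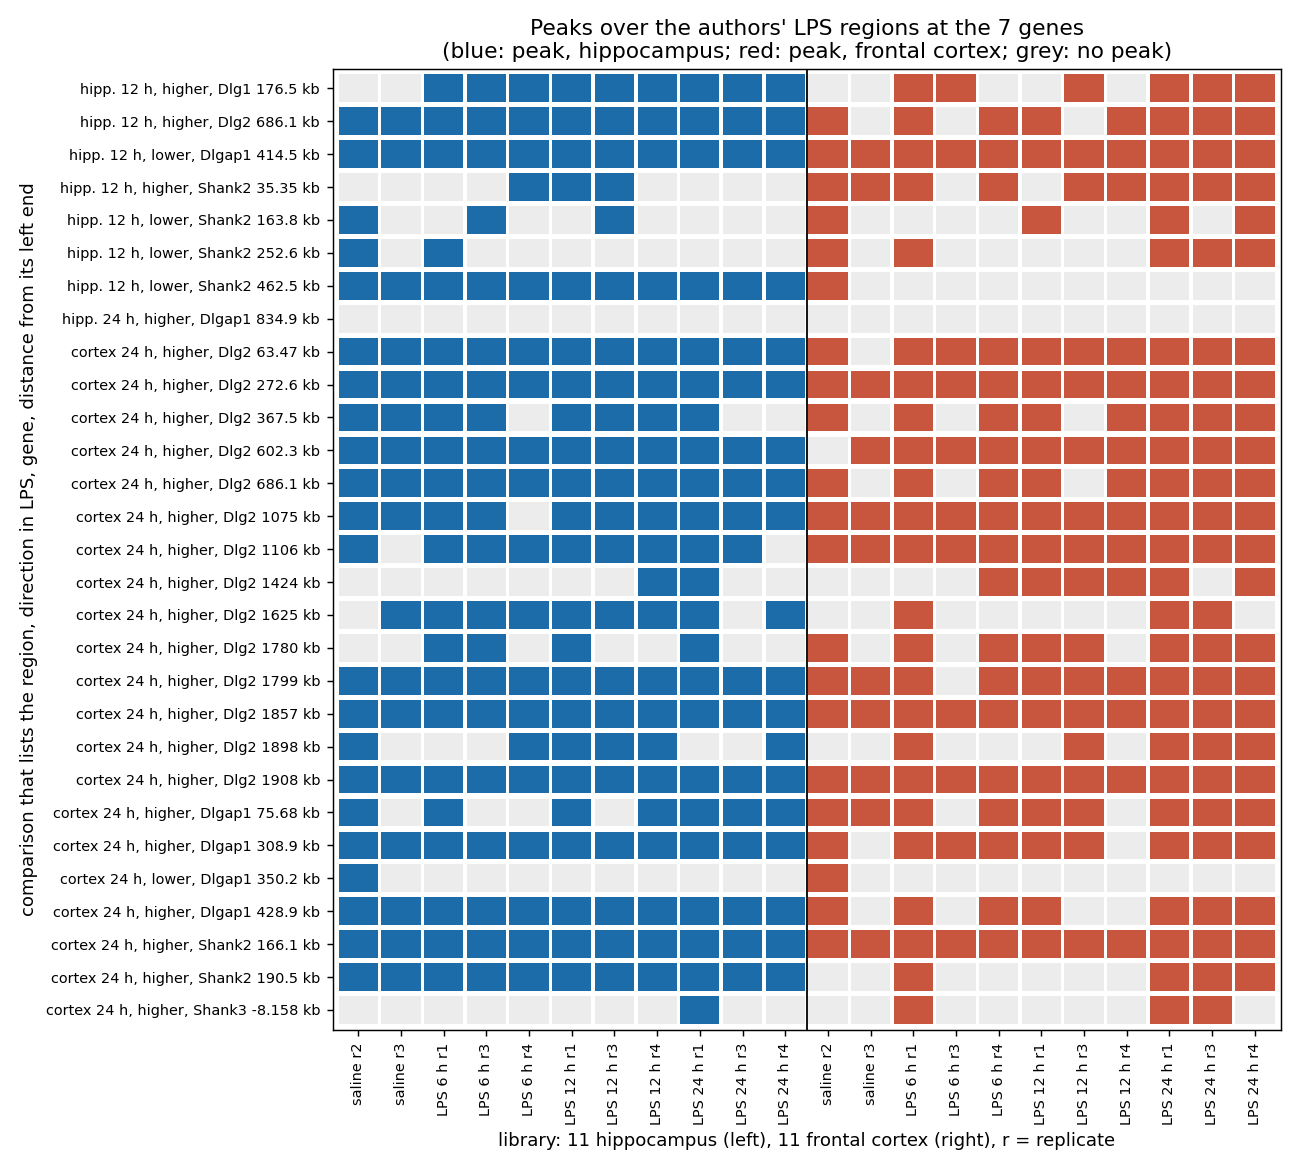
Libraries (columns, hippocampus left, frontal cortex right) with a peak over each region of the authors' tables at the members (rows: table, direction after LPS, gene and kb from its left end); blue and red cells have a peak and grey cells none. The Dlg1 row is empty in both hippocampus saline libraries and filled in the 9 LPS libraries, and the row of Dlgap1 at 24 h in hippocampus is empty throughout.

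Counting only windows with a peak in all 3 LPS libraries of a time and in neither saline library, or the reverse, gave shares that lay close to those of all windows in some comparisons and below them in others. In cortex at 24 h 33 member windows were gained, 2.94% against 3.03% of all windows, and 10 were lost, 0.891% against 0.827%. Of the 33, 22 were at Dlg2, 6 at Dlgap1, 3 at Shank2 and 1 each at Dlg1 and Dlg4. Dlg2 had 524 of the 1122 member windows counted there. Cortex at 6 h gave 3 gained and 8 lost (0.275% and 0.733%, against 0.66% and 1.17%), and at 12 h 8 and 12 (0.739% and 1.11%, against 0.941% and 1.23%). Hippocampus gave 7 and 17 at 6 h (0.608% and 1.48%, against 0.517% and 1.51%), 11 and 11 at 12 h (0.947% each, against 1.29% and 1.39%) and 8 and 13 at 24 h (0.693% and 1.13%, against 1.12% and 1.61%). With peaks of −log10 q of at least 5 the order at 6 h in cortex was the other way, 0.836% gained and 1.34% lost at the members against 0.561% and 1.04% of all windows. These counts have no test.

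Across the 22 libraries, the gene whose peaks per 100000 followed each member most closely was Opcml for Dlg1 (Pearson's r = 0.935), Gm52229 for Dlg2 (0.870), Niban2 for Shank3 (0.865), Ncan for Shank2 (0.853), Cdc20b for Homer1 (0.820), Arih2 for Dlgap1 (0.749) and Qrich2 for Dlg4 (0.683). Each is the highest of 8638 to 8671 genes with a mean of at least 10 peaks, more than 1 Mb away. The libraries share tissue, animal and list length, so these values are a description and have no p.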

How the data were processed

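OMNI-ATAC-seq of 20 to 30 mg frozen tissue with paired 50 bp reads was measured per library, per the labels' protocols. Per the submitters' processing notes, the tools were MACS2 2.2.7.1, Bowtie2 2.4.4, Trim Galore 0.6.7 and FastQC 0.11.9 and the build was GRCm38. A shift of reads for the transposase was not given in the sources used here. A baseline animal was left out by the authors for low depth. Deposited peak lists give a score, the −log10 p, the −log10 q and a fold ratio to background per peak. These hold no read depth and served only for ranks and filters inside 1 library. Lists reach down to weak peaks (−log10 p just above 2).

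Distinct intervals were assigned to genes by summit. Windows reaching 250 bp to either side of summits, without overlap, were counted as present where a peak overlapped at least 50% of the shorter. Windows were tested by Fisher's exact test and genes by limma 3.58.1 (trend, R 4.3.3) on log2(peaks per 100000 + 0.5), with Benjamini-Hochberg adjustment at 0.05 over all features. Both were run on simulated data for the tissue comparison only. There limma recovered 71% of 200 genes doubled or halved, with 5 false calls, and the window test 94.0% of changed windows. The LPS comparisons were not simulated. The authors' differential regions were counted where their midpoint lay at a member. Members, lists and tests were chosen with earlier results of these data known. All 7 members are named throughout, with up to 3 windows per gene and direction of lowest p, up to 3 regions per table and gene of lowest FDR, up to 2 other scaffold genes per direction of largest difference and the 1 most similar gene. The start test and its alternatives, the runs and the stretches between starts were added after the data were seen.

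Same-numbered libraries of the 2 tissues come from 1 animal, per the labels. Their deviations from group means correlated at -0.04 to 0.18 (median 0.05; 3 of 11 over 0.1). Python 3.11.15, numpy 2.4.6, pandas 2.3.3, scipy 1.17.1, numba 0.67.0 and matplotlib 3.10.9 were used.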

Additional observations from a re-analysis of the deposited data

How the results depend on the processing

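Between tissues, limma called the same 5 members with the animal as a replicate block (Dlg2 adjusted p = 6.88e-05) and in each of the 11 fits that left out an animal (Dlg1 between -0.46 and -0.40). It called 2 of the 6 members tested among the 50000 strongest peaks (Homer1 had too few), 2 without scaling and 3 per 100 Mb covered. Dlg2 and Shank2 were lost under all 3 of those settings (adjusted p between 0.0538 and 0.875), and Shank3 and Homer1 without scaling. No called value changed sign. Windows called at members were 30 towards hippocampus and 33 towards cortex among the 50000 strongest peaks (32.1% of those tested, against 37.5% of all windows). They were mostly other windows: of the 238 called with all peaks, 6 were called there in the same direction (6427 of 99751 over all windows). With the animal as a replicate block 81 passed towards each tissue (15.7% against 20.9%), and without 1 animal the calls totalled 204 to 223. No LPS comparison called a member under any setting (lowest adjusted p 0.197), the fit with the replicate number as a block over LPS times included. No paired analysis of LPS against saline was possible because their libraries come from different mice and no label ties replicate numbers across mice. At an FDR of 0.01 the authors' deposited tables held 0 lower regions in cortex at 24 h, 1 higher and 0 lower in hippocampus at 12 h and 0 higher at 24 h. Member windows that separated LPS from saline were counted again with peaks of −log10 q of at least 5. In cortex 5 were gained at 6 h (0.836%, against 0.561% of all windows) and 2 at 12 h (0.342% against 0.870%). At 24 h 5 were lost there (0.750% against 0.578%). In hippocampus 1 was gained at 6 h (0.167% against 0.360%) and 3 at 24 h (0.482% against 0.826%). At 12 h 4 were gained and 5 lost there (0.628% and 0.785%, against 1.31% and 1.24%). With an overlap of 1 bp, 11 were gained in hippocampus at 6 h (0.929% against 0.527%). The cause of these shifts was not tested. Peak lists hold no depth, so a missing peak does not show closed chromatin.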
